A study of Homo sapiens with 18 samples.

Results

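The genes described here are 34 proteases that cut the extracellular matrix or shed cell-surface proteins, with the inhibitors and receptors that act on them, out of 36601 gene identifiers in the count tables. They were chosen by gene symbol as a list of 12 matrix metalloproteinases, the plasminogen activators and their receptor, 3 serpins, 3 TIMPs, ADAM and ADAMTS proteases, cathepsins, heparanase, matriptase and 2 further inhibitors, and each symbol was found once. The choice was made with earlier results of these data known. RNA was sequenced from the human cholangiocarcinoma (bile duct cancer) lines HuCCT1, YSCCC and KKU-100, whose tissue of origin is given as bile duct, liver and biliary tract. Each line was made into stable lentiviral derivatives that carried either a control hairpin (shControl, genotype given as WT) or hairpin number 2 against RNF213 (shRNF213#2, genotype given as RNF213 knockdown). The 6 groups held 3 biological replicates each, 18 libraries in all, and a shControl and a shRNF213#2 library of the same line with the same replicate number are called a pair. HuCCT1 and YSCCC grew in RPMI-1640 and KKU-100 in Ham's F12, all with fetal bovine serum, HEPES and antimicrobials, so line and medium cannot be told apart for KKU-100. A single hairpin was sequenced, and the labels do not say whether a derivative is a clone or a pool. The series title frames RNF213 as a possible suppressor of local invasion.

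Matrix metalloproteinases are zinc proteases that are made as inactive proenzymes, and some of them activate others. Tissue inhibitors of metalloproteinases (TIMPs) block the active enzymes, and the urokinase system turns plasminogen into plasmin at the cell surface, where serpins hold it in check. In bile duct cancers these proteins are studied for their part in crossing basement membrane and stroma, and much of their control lies after transcription, in secretion, activation and inhibition, which RNA counts do not measure.

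Library totals ran from 21056732 to 25502097 counts. RNF213, the targeted gene, had less transcript with the hairpin in 9 of 9 pairs, with a mean log2 fold change over the 3 lines of -1.01 (SE 0.11, adjusted p = 0.000347 by edgeR's quasi-likelihood test with Benjamini-Hochberg adjustment, the test behind every adjusted p here unless another is named, with a threshold of 0.05). It passed the test in YSCCC (-1.16, adjusted p = 0.000307) and KKU-100 (-0.97, adjusted p = 0.0462), but not in KKU-100 without replicate 1 or without replicate 3 (adjusted p = 0.0663 and 0.251). Without the replicate block neither line passed (adjusted p = 0.883 in YSCCC and 0.362 in KKU-100), while the mean over the lines did (0.0372). In HuCCT1 the log2 fold change was -0.89 (adjusted p = 0.136). The biliary and epithelial markers summed to between 7300 and 10128 CPM (counts scaled to library size) in HuCCT1 and between 4692 and 8516 CPM for YSCCC, but to between 873 and 1446 CPM for KKU-100. KKU-100 kept KRT8, KRT18, KRT7 and SOX9, whereas its shControl mean was 0 CPM for EPCAM, 0.0773 for KRT19 and 2.29 for CDH1, so 2 of the 7 epithelial markers lay under 1 CPM in that line. Hepatocyte markers summed to at most 0.490 CPM in any library. Fibroblast markers summed to 67.7 to 193 CPM in the control arm of YSCCC and 42.6 to 252 CPM in its hairpin arm. LUM made up most of this, with a shControl mean of 108 CPM there. COL1A1 was at 11.8, COL3A1 at 9.57, THY1 at 4.67 and DCN at 2.95 CPM, and COL1A2 (0.252) and PDGFRB (0.345) lay under 1 CPM. In HuCCT1 the fibroblast sums were 18.2 to 33.7 and 25 to 41.7 CPM. Replicate 2 of HuCCT1 stood apart in both arms for interferon-stimulated genes (4647 and 4494 CPM, against 291 to 606 in the other HuCCT1 libraries), and replicate 3 of YSCCC for endoplasmic reticulum stress genes (4551 and 3387 CPM, against 1118 to 1297).

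Levels of the protease and inhibitor genes differed widely between the lines without the RNF213 hairpin. MMP7, MMP14, SERPINB2 and urokinase (PLAU) were highest in HuCCT1, MMP13 in YSCCC, and TIMP3, TFPI2 and SERPINE2 in KKU-100. YSCCC also had PLAU, TIMP3 and TFPI2, at shControl means of 178, 331 and 231 CPM. In shControl libraries 23 of the 31 testable genes differed between HuCCT1 and YSCCC (10 higher and 13 lower in HuCCT1, where 58.4% of all genes tested differed, 28.1% higher and 30.2% lower). KKU-100 differed from HuCCT1 in 26 of 31 (12 higher and 14 lower, against 57.4% of all genes, 27.3% higher and 30.1% lower) and from YSCCC in 24 of 31 (12 in each direction, against 60.7% of all genes, 27.9% higher and 32.9% lower). At a difference of 4-fold or more the counts were 13 of 31 for HuCCT1 against YSCCC (23.8% of all genes), 18 of 31 for KKU-100 against HuCCT1 (25.4%) and 11 of 31 for KKU-100 against YSCCC (27%). MMP3, MMP9 and MMP10 were too low in every shControl group to be tested between lines.

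**Figure D1:**
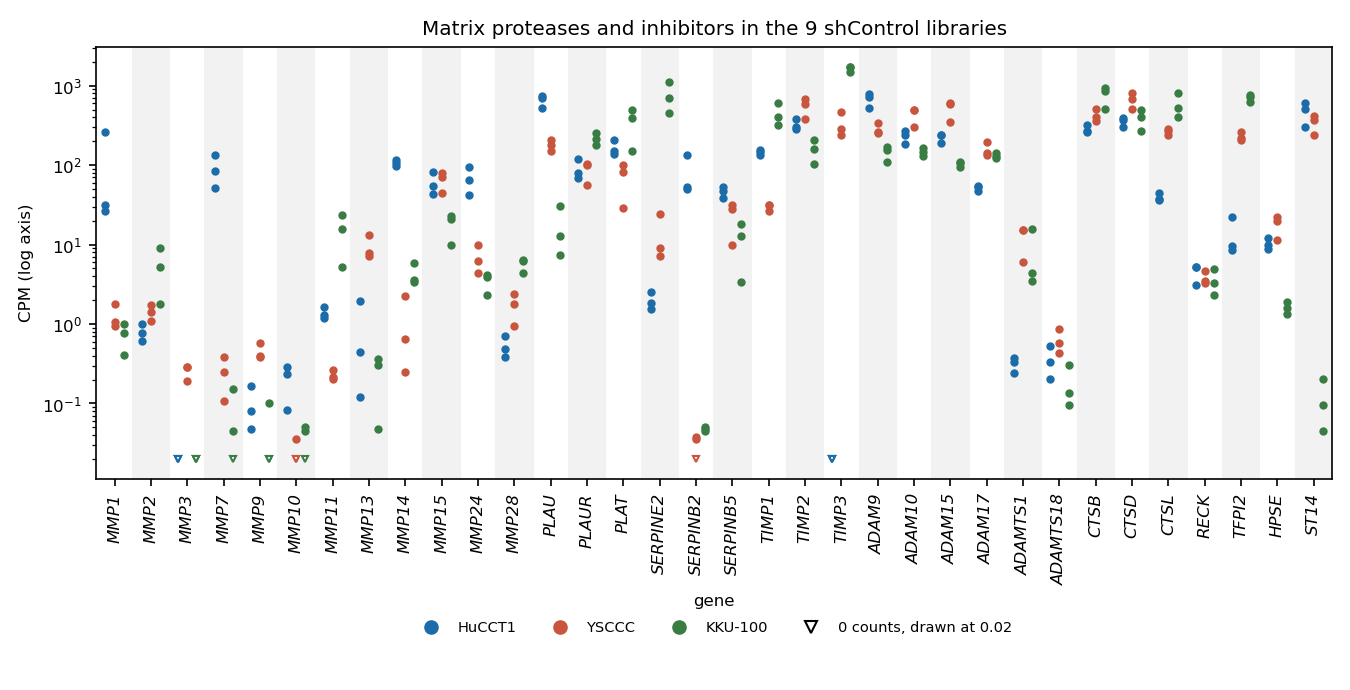
CPM (log axis) of the 34 genes in each of the 9 shControl libraries, 3 points per line, with open triangles for libraries at 0 counts. SERPINE2 in KKU-100 (453, 692 and 1095 CPM) and ST14 in KKU-100 (0.205, 0.0452 and 0.0951 CPM) lie far from the other lines, whereas RECK lies between 2.31 and 5.22 CPM in all 9 libraries.

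Levels of different genes can be set side by side on the deposited TPM scale, which corrects for transcript length. By mean TPM in shControl the leading gene was PLAU in HuCCT1 (796 ± 112, SD, n = 3), cathepsin D (CTSD) in YSCCC (991 ± 196) and TIMP1 in KKU-100 (1196 ± 410.3). TIMP1 in KKU-100 was followed by TFPI2 (951 ± 93.8), CTSL (834 ± 311), TIMP3 (769 ± 75.3) and SERPINE2 (717 ± 318). In that order no neighbours differ beyond their spread. In HuCCT1 and YSCCC 13 of the 34 genes had a mean of at least 100 TPM and in KKU-100 11, while 9, 9 and 10 lay under 1 TPM.

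Of the 34 genes, 5 sit in 1 cluster of metalloproteinase genes on chromosome 11 (GRCh38, 102520508 to 102955732), in the order MMP7, MMP10, MMP1, MMP3 and MMP13, all on the minus strand. MMP7 (matrilysin, which cuts proteoglycans and sheds surface proteins) and MMP1 (interstitial collagenase) were highest in HuCCT1, as was MMP10 (stromelysin 2, 14 counts over 3 shControl libraries), while MMP13 (collagenase 3) was highest in YSCCC. MMP7, SERPINB2, TFPI2 and TIMP3 differed widely in level between lines, whereas MMP10 was too low to be tested between them. The bases just upstream of the start sites are printed for these 5 genes, since they show how unlike these promoters are. The genes were picked with their levels known. Each sequence is the 110 bases before the RefSeq start (GRCh38.p14), 5′ to 3′ on the gene's strand. Capitals mark an AP-1 motif (TGANTCA, a site for Fos and Jun proteins) or, for TIMP3, GC boxes (GGGCGG on either strand). The positions are chr11:102530748-102530857 (minus) for MMP7, chr11:102780629-102780738 (minus) for MMP10, chr18:63887595-63887704 (plus) for SERPINB2, chr7:93890754-93890863 (minus) for TFPI2 and chr22:32801595-32801704 (plus) for TIMP3.
MMP7: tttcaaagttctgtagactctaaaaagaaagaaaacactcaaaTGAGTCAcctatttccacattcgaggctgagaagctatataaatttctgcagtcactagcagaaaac
MMP10: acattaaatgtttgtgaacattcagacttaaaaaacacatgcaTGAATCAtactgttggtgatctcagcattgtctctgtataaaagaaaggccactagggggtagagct
SERPINB2: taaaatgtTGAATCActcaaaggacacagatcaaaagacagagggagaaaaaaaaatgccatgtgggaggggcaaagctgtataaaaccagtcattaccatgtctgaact
TFPI2: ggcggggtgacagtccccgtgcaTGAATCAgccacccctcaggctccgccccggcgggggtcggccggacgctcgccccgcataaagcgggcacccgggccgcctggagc
TIMP3: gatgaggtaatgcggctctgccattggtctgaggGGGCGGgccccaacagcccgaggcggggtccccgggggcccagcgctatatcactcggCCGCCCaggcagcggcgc

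The MMP7 and MMP10 motifs both begin at position -67, counted back from -1 at the base before the start. The RefSeq table held promoters for 22 of the 34 genes. Searched over 250 bases on both strands, the AP-1 motif was in 6 of the 22 (MMP7, MMP10, PLAUR, SERPINB2, SERPINB5 and TFPI2), against 6.57% of 35116 promoters. The TATAAA box was in 4 (MMP7, MMP10, SERPINB2 and HPSE, against 10.7%) and the GC box in 16 (against 42.6%). The 250 bases hold 33.6% G and C with 3 CpG dinucleotides at MMP7, 34.4% with 2 at MMP10 and 37.2% with 0 at SERPINB2. TIMP3 (72.4%, 26 CpG) and TFPI2 (64.4%, 20 CpG) lie at the other end. A motif match is a description of letters, and binding was not measured.

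Among the secreted metalloproteinases MMP7 stood at 51.9, 83.8 and 134 CPM in the HuCCT1 shControl libraries, at 0.246, 0.381 and 0.108 in YSCCC and at 0.154, 0.0452 and 0 in KKU-100. HuCCT1 did not overlap YSCCC or KKU-100, which overlapped each other. HuCCT1 was 365-fold above YSCCC (adjusted p = 1.75e-06). MMP1 was at 261, 31.3 and 26.5 CPM in HuCCT1, at 0.943, 1.07 and 1.76 in YSCCC and at 0.41, 0.994 and 0.761 in KKU-100. Its 84.5-fold excess in HuCCT1 over YSCCC (adjusted p = 0.000243) leaned on the first HuCCT1 library, without which it was 23.1-fold (adjusted p = 4.77e-05). The excess over KKU-100 was 144-fold, or 39.3-fold without that library.

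MMP13 stood at 13, 7.88 and 7.23 CPM in YSCCC, at 0.122, 1.94 and 0.451 in HuCCT1 and at 0.308, 0.361 and 0.0476 in KKU-100. It was 11.3-fold higher in YSCCC than in HuCCT1 (adjusted p = 0.00316; 31.6-fold without HuCCT1 replicate 2) and 37.9-fold higher than in KKU-100 (adjusted p = 0.00056). MMP11 (stromelysin 3, which is activated inside the cell by furin) was at 5.28, 15.5 and 23.4 CPM in KKU-100, at 1.18, 1.66 and 1.31 in HuCCT1 and at 0.205, 0.267 and 0.216 in YSCCC, an order in which no groups overlapped. KKU-100 lay 63.7-fold above YSCCC (adjusted p = 1.55e-05). The MMP11 record overlaps CHCHD10 on the other strand. Whether reads were counted by strand is not stated in any source used, so reads of the 2 genes cannot be told apart. The same holds for all 14 of the 34 genes that overlap a record on the other strand, but the possible share differs widely. CHCHD10 reached 905 counts in a library, against 2 to 493 for MMP11. TAF15 reached 9482, against 8 to 184 for MMP28, and MMP24OS 1814, against 45 to 2419 for MMP24. Against the lowest library of the gene, IAH1 reached 1074 (ADAM17, 1018), GNGT1 145 (TFPI2, 140) and C10orf55 65 (PLAU, 145). The records across MMP2 and TIMP3 had at most 1 and 17 counts.

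MMP2 (gelatinase A, which digests the type IV collagen of basement membranes) was low in all lines, at 1.8, 9.12 and 5.23 CPM in KKU-100, 0.775, 0.995 and 0.615 in HuCCT1 and 1.44, 1.71 and 1.08 in YSCCC. KKU-100 was 6.79-fold above HuCCT1 (adjusted p = 0.00153; 4.45-fold without KKU-100 replicate 2) and 3.85-fold above YSCCC (log2 difference 1.95, adjusted p = 0.00817; 1.32 without it). MMP28 (epilysin) was at 4.36, 6.28 and 6.42 CPM in KKU-100, 0.489, 0.379 and 0.697 in HuCCT1 and 1.76, 2.4 and 0.935 in YSCCC, and it overlaps TAF15 on the other strand. The gelatinase MMP9 had 7, 35 and 2 counts in all over the shControl libraries of HuCCT1, YSCCC and KKU-100, and the stromelysins MMP3 and MMP10 at most 20.

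The membrane-type metalloproteinases sit in the plasma membrane, where MMP14 (MT1-MMP) activates MMP2 and cuts collagen next to the cell. MMP14 was at 115, 107 and 98.5 CPM in HuCCT1, at 3.54, 5.92 and 3.38 in KKU-100 and at 0.246, 0.647 and 2.27 in YSCCC. HuCCT1 was 24.8-fold above KKU-100 (adjusted p = 5.55e-05) and 100.1-fold above YSCCC (adjusted p = 1.32e-05; 231-fold without YSCCC replicate 3). The 2 genes that act in sequence were thus high in different lines: MMP14 in HuCCT1, and MMP2, at a few CPM, in KKU-100. MMP24 (MT5-MMP) was at 42.2, 65.3 and 95.6 CPM in HuCCT1, 9.96, 6.28 and 4.39 in YSCCC, and at 2.31, 4.11 and 3.95 in KKU-100, with an antisense record (MMP24OS) across it. MMP15 (MT2-MMP) was at 43.3, 82.4 and 53.9 CPM in HuCCT1 and 79.5, 71.6 and 44.3 in YSCCC, which overlapped, and at 9.95, 23.2 and 21.1 in KKU-100, 3.29-fold below HuCCT1 (adjusted p = 0.00195).

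In the plasminogen system PLAU (urokinase, chromosome 10, 73909177 to 73917496) was at 749, 696 and 529 CPM in HuCCT1, 178, 151 and 205 in YSCCC, and at 7.44, 30.3 and 12.7 in KKU-100. Each line differed from the others: HuCCT1 was 3.72-fold above YSCCC (adjusted p = 0.00257), and YSCCC was 10.5-fold above KKU-100 (adjusted p = 9.12e-05; 17.6-fold without KKU-100 replicate 2). Its receptor PLAUR, which holds urokinase at the cell surface, was highest in the line with the least PLAU, with 181, 254 and 213 CPM in KKU-100 against 79.8, 120.5 and 68.2 in HuCCT1 (2.43-fold, adjusted p = 0.0024) and 103, 101 and 56.5 in YSCCC (2.52-fold, adjusted p = 0.00178). PLAT (tissue plasminogen activator) was at 149, 387 and 490.5 CPM in KKU-100, 207, 138 and 149 in HuCCT1 and 101, 82.7 and 28.7 in YSCCC, and KKU-100 was 4.91-fold above YSCCC (adjusted p = 0.0025).

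The serpins, most of which (but not maspin) trap serine proteases, differed in level between the lines. SERPINB2 (plasminogen activator inhibitor 2) was at 134, 53.7 and 49.6 CPM in HuCCT1, and had 2 counts over the 3 YSCCC and 3 counts over the 3 KKU-100 shControl libraries. SERPINE2 (protease nexin 1, an inhibitor of thrombin and urokinase) was at 453, 692 and 1095 CPM in KKU-100, 7.14, 9.1 and 24.1 in YSCCC and 2.53, 1.56 and 1.84 in HuCCT1, an order without overlap. KKU-100 was 377-fold above HuCCT1 (adjusted p = 2.18e-06) and 56.2-fold above YSCCC (adjusted p = 1.11e-05; 90.8-fold without YSCCC replicate 3). SERPINB5 (maspin, a serpin studied as a suppressor of tumour spread) was at 38.6, 53 and 47.8 CPM in HuCCT1, 31.7, 27.9 and 9.78 in YSCCC, and at 12.8, 18.4 and 3.42 in KKU-100, 4.01-fold lower in KKU-100 than in HuCCT1 (adjusted p = 0.0101).

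TIMP3, the TIMP that binds to the matrix and also inhibits ADAM17, had 0 counts in all 6 HuCCT1 libraries. In shControl it was at 284, 469 and 238 CPM in YSCCC and at 1479, 1733 and 1719 in KKU-100, 5.04-fold higher in KKU-100 (adjusted p = 0.000135). Against a floor of 3 counts over the 3 HuCCT1 libraries (0.0419 CPM), YSCCC was at least 7895-fold and KKU-100 at least 39253-fold higher, bounds that cover counting error only. The TIMP3 record (chromosome 22, 32801701 to 32863043) lies within SYN3 on the other strand, which had at most 17 counts in any library.

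TIMP1, an inhibitor of most soluble metalloproteinases, was at 321, 609.9 and 399 CPM in KKU-100, 155, 145 and 135 in HuCCT1 and 26.2, 31.8 and 31.2 in YSCCC, with no overlap between lines. TIMP2, which takes part in the activation of MMP2 by MMP14, was at 675, 586 and 384 CPM in YSCCC, 303, 381 and 281 in HuCCT1 and 102, 208 and 159.8 in KKU-100, so the order of TIMP2 was the reverse of that of TIMP1 between YSCCC and KKU-100. TFPI2, a Kunitz inhibitor of plasmin and other serine proteases (chromosome 7, 93885396 to 93890753), was at 721, 751 and 613 CPM in KKU-100, 209.6, 221 and 263 in YSCCC and 8.56, 21.9 and 9.55 in HuCCT1. It was 17.3-fold higher in YSCCC than in HuCCT1 (adjusted p = 7.72e-06) and 3.05-fold higher in KKU-100 than in YSCCC (adjusted p = 0.00125). RECK, a membrane-anchored inhibitor, had 2.31 to 5.22 CPM in all 9 libraries, and the intervals of its 3 log2 differences between lines ran from -1.16 to 1.04 (adjusted p = 0.42 to 0.802).

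Among the sheddases ADAM9 was at 522, 719 and 774 CPM in HuCCT1, 339.5, 264 and 252 in YSCCC, and at 155, 170.4 and 111 in KKU-100, an order without overlap (HuCCT1 4.59-fold above KKU-100, adjusted p = 2.26e-05). ADAM15 was at 596, 591 and 353 CPM in YSCCC, 191, 239 and 241 in HuCCT1 and 107, 108 and 95.7 in KKU-100, again without overlap (YSCCC 4.88-fold above KKU-100, adjusted p = 1.37e-05). ADAM10 and ADAM17, which shed Notch and growth factor precursors, had shControl means of 230.4, 425 and 146 CPM and of 51.5, 158 and 133 CPM in HuCCT1, YSCCC and KKU-100. ADAMTS1, which cuts proteoglycans such as versican, was at 15.1, 6.05 and 15 CPM in YSCCC, and at 15.9, 4.38 and 3.52 in KKU-100, against 0.245, 0.332 and 0.369 in HuCCT1 (YSCCC 37.4-fold above HuCCT1, adjusted p = 0.000156).

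ST14 (matriptase, a membrane serine protease of epithelia that activates pro-urokinase and pro-hepatocyte growth factor) was at 301, 605 and 503 CPM in HuCCT1 and 417, 365 and 237 in YSCCC, but had 7 counts over the 3 KKU-100 shControl libraries. KKU-100 was 3970.5-fold below HuCCT1 (adjusted p = 1.28e-07; 6255-fold without KKU-100 replicate 1), and it is also the line with EPCAM and KRT19 under 1 CPM. HPSE (heparanase, the endoglycosidase that cuts heparan sulfate chains, chromosome 4, 83292461 to 83335153) was at 22.4, 19.9 and 11.4 CPM in YSCCC, 8.68, 10 and 12.2 in HuCCT1 and 1.9, 1.58 and 1.33 in KKU-100, 11-fold below YSCCC (adjusted p = 1.25e-05).

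Cathepsin L (CTSL), a cysteine protease of lysosomes that cells also secrete, was at 407, 516 and 819 CPM in KKU-100, 268, 283 and 240.1 in YSCCC and 37.5, 44.6 and 36.4 in HuCCT1. No lines overlapped, and KKU-100 was 14.8-fold above HuCCT1 (adjusted p = 1.54e-06). Cathepsins B and D differed less: the shControl means were 282, 419.7 and 763 CPM for CTSB and 356, 662 and 388 CPM for CTSD in HuCCT1, YSCCC and KKU-100. With the shRNF213#2 libraries in place of shControl, the 3 comparisons between lines gave 23, 27 and 21 differing genes of the list. In shControl they gave 23, 26 and 24, where 58.4%, 57.4% and 60.7% of all genes differed. The share of all genes in the shRNF213#2 libraries is not given here, so those counts do not set the list apart.

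With the RNF213 hairpin, calls among these genes came in YSCCC. In that line 11 of 30 testable genes changed, 36.7%, against 8.25% of all 16932 genes tested. The list was chosen with earlier results of these data known, so this share and the later ones describe the list and do not test it. The 11 include 2 genes, MMP3 and ADAMTS18, that passed the filter on low counts only through the arm in which they were higher, so they had to differ. TFPI2, ADAM9, MMP3 and HPSE rose (4 of 30, against 3.69% of all genes), and SERPINB5, TIMP2, PLAU, ADAMTS18, ADAMTS1, MMP15 and PLAT fell (7 of 30, against 4.56%). The median log2 fold change over the 30 was -0.17, against 0.01 over all genes tested. The 11 calls rest on the pairing: without the replicate block the test called 0 of the 30 and 0 of all genes. Without replicate 1 the test called 6 of the list, without replicate 2 called 8, and without replicate 3, whose endoplasmic reticulum stress genes stood apart, called 12. Over all genes the calls moved from 1397 to between 313 and 1856 with 1 replicate left out. Library sums of 4 endothelial markers were 76.6, 59.7 and 14.9 CPM in the control arm of YSCCC and 85.8, 96.8 and 28.6 in the hairpin arm, higher in each pair. In the control arm CDH5 (48.6 CPM) and PECAM1 (1.33) lay over 1 CPM, VWF was at 0.504 and KDR at 0. Epithelial sums (8516, 8039 and 4962, then 8303, 7129 and 4692 CPM) and endoplasmic reticulum stress sums (1297, 1207 and 4551, then 1211, 1118 and 3387 CPM) were lower in each pair. The part of these markers in the changes was not tested. In bulk RNA, fewer cells that carry a transcript and less transcript per cell cannot be told apart.

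**Figure D2:**
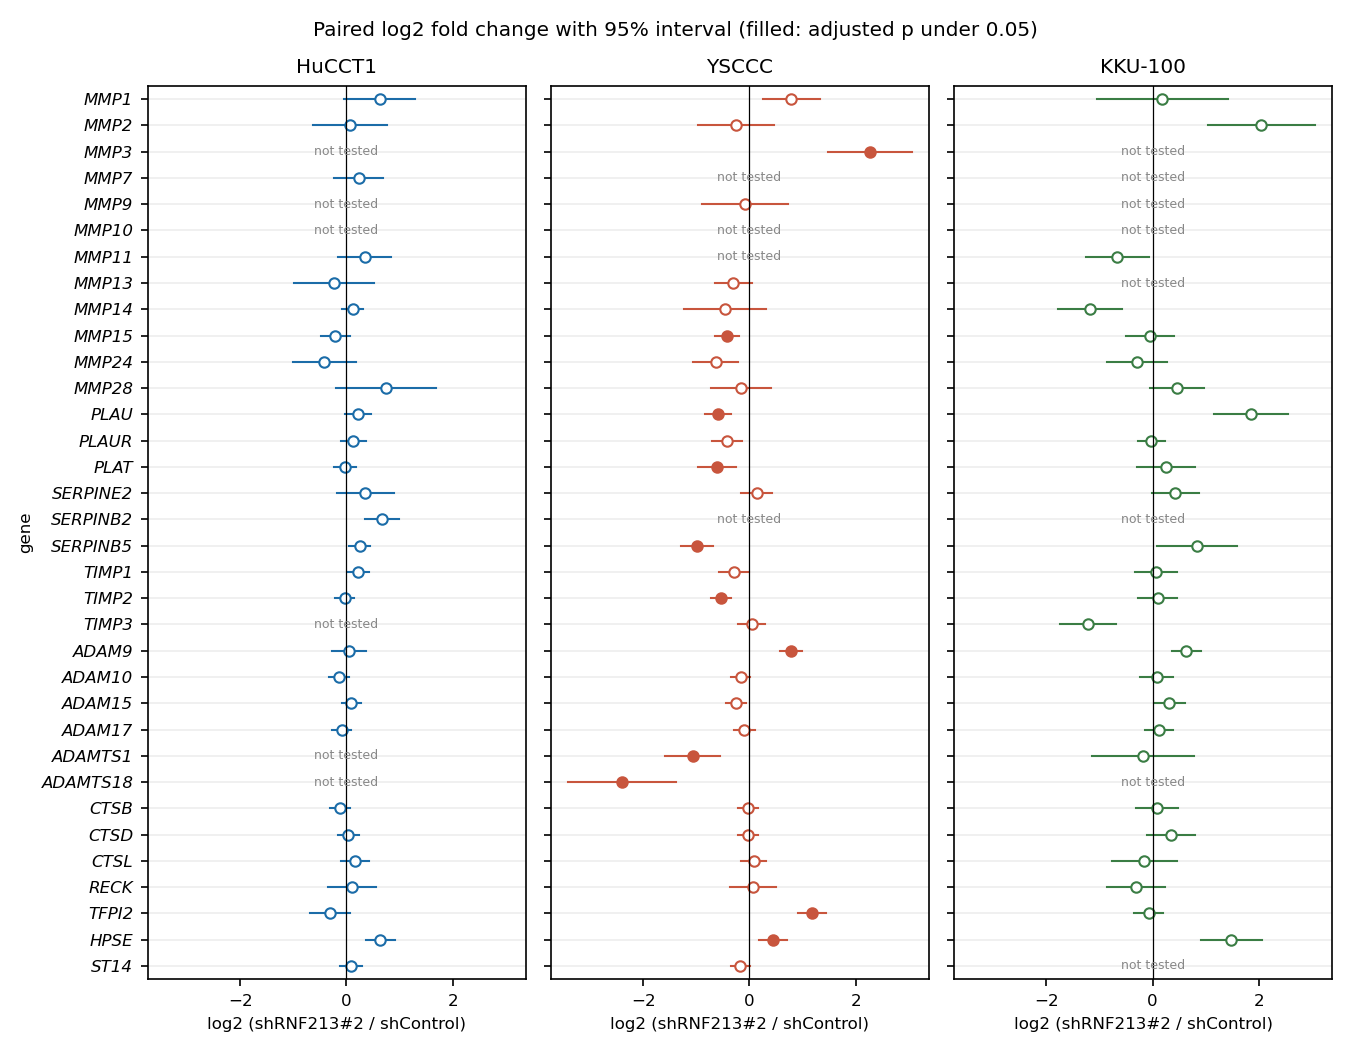
Paired log2 fold change of shRNF213#2 over shControl (x axis) with its 95% interval for each of the 34 genes (y axis) in HuCCT1, YSCCC and KKU-100, 3 pairs per line, with filled points for an adjusted p below the threshold. The 11 filled points are all in YSCCC, while the open points of PLAU (1.86), MMP2 (2.05) and TIMP3 (-1.21) in KKU-100 lie far from 0 with wide intervals.

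TFPI2 went from 209.6, 221 and 263 CPM in the YSCCC shControl libraries to 519.9, 611 and 441 with the hairpin. Every hairpin library lay above every control library, and the rise was 2.26-fold (log2 1.17, SE 0.12, adjusted p = 0.000217). ADAM9 rose 1.71-fold, from 339.5, 264 and 252 CPM to 586, 514 and 378, also without overlap (log2 0.78, SE 0.09, adjusted p = 0.00056). MMP3 (stromelysin 1, which activates other metalloproteinases) rose from 0.287, 0.19 and 0.288 CPM to 1.98, 0.567 and 1.33, or from 20 to 103 counts over 3 libraries (log2 2.26, SE 0.37, adjusted p = 0.00278). It passed the filter on low counts only through the hairpin arm, and without replicate 1 its adjusted p was 0.0701.

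HPSE rose 1.35-fold in YSCCC, from 22.4, 19.9 and 11.4 CPM to 28.1, 25.9 and 17.6, with overlapping arms but a rise in each of the 3 pairs (log2 0.44, SE 0.12, adjusted p = 0.0421). Leaving out any 1 of the 3 pairs lost that call (adjusted p = 0.194, 0.13 and 0.0953).

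Maspin (SERPINB5) fell 1.98-fold in YSCCC, from 31.7, 27.9 and 9.78 CPM to 19.4, 11.3 and 5.06 (log2 -0.99, SE 0.14, adjusted p = 0.00134). It was lower in each pair, while the arms overlapped because replicate 3 was low in both. TIMP2 fell 1.45-fold, from 675, 586 and 384 CPM to 487, 375 and 276, with log2 ratios of -0.47, -0.65 and -0.47 in the 3 pairs (SE 0.08, adjusted p = 0.00247). TIMP1 (26.2, 31.8 and 31.2 CPM to 27.5, 20.9 and 24.6, adjusted p = 0.205) and TIMP3 (284, 469 and 238 CPM to 394, 391 and 226, adjusted p = 0.877) did not pass the test.

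Both plasminogen activators fell. PLAU went from 178, 151 and 205 CPM to 142, 102 and 111, 1.51-fold lower without overlap (log2 -0.59, SE 0.11, adjusted p = 0.00595). PLAT went from 101, 82.7 and 28.7 CPM to 101, 50.1 and 12.6, so that its fall (log2 -0.61, SE 0.17, adjusted p = 0.0409) came from replicates 2 and 3, and the call was lost without either of them (adjusted p = 0.199 and 0.0693) and in limma-voom (0.0605). The receptor PLAUR had a log2 fold change of -0.42 (adjusted p = 0.0622), with 103, 101 and 56.5 CPM before and 80, 56.5 and 54.5 after.

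ADAMTS1 fell 2.1-fold, from 15.1, 6.05 and 15 CPM to 8, 4.88 and 3.91 (log2 -1.07, SE 0.24, adjusted p = 0.0162; 0.115 without replicate 1). ADAMTS18, a secreted protease of low level here, fell from 48 to 9 counts over 3 libraries (0.861, 0.571 and 0.431 CPM to 0.116, 0.113 and 0.108, log2 -2.39, SE 0.47, adjusted p = 0.00819). It passed the filter on low counts only through the control arm, and without replicate 1 its adjusted p was 0.108. MMP15 fell 1.35-fold, from 79.5, 71.6 and 44.3 CPM to 64, 45.5 and 35.5 (log2 -0.43, SE 0.10, adjusted p = 0.0232), and lost the call without replicate 1 or 2 (adjusted p = 0.123 and 0.158). The remaining 19 testable genes had adjusted p-values up to 0.926, among them MMP1 (log2 0.79, 0.0707), MMP24 (-0.63, 0.0668) and the 3 cathepsins (log2 -0.04 to 0.08).

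In KKU-100 none of the 26 testable genes passed edgeR's test, against 0.443% of all 14915 genes tested (0.302% higher and 0.141% lower), and 9 of the 26 and 2391 of all 14915 had an unadjusted p under 0.05. DESeq2 called 4 of the list in this line and edgeR without a filter on low counts called 5. Without replicate 2 the edgeR test called 6 (PLAU, TIMP3, MMP2, HPSE, SERPINB5 and ADAM9), without replicate 1 it called PLAU (log2 1.38, adjusted p = 0.0138) and without replicate 3 it called 0. Calls over all genes also moved, from 66 to between 9 and 420 with 1 replicate left out. Those for DESeq2 and the fit without a filter are given at the end. Library sums of interferon-stimulated genes were 5734 to 8094 CPM in the control arm of this line and 4285 to 5670 in the hairpin arm, with no overlap, and sums of fibroblast markers were 7.23 to 16.2 and 12.7 to 41.8 CPM; their part in these values was not tested.

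PLAU had the lowest adjusted p, with 7.44, 30.3 and 12.7 CPM in the control libraries and 57.6, 60.2 and 44.3 in the hairpin libraries (log2 1.86, SE 0.30, adjusted p = 0.055). The arms did not overlap, and the 3 hairpin libraries were closer together than the 3 controls. HPSE was at 1.9, 1.58 and 1.33 CPM and then 5.32, 3.71 and 4.64, again without overlap (log2 1.48, SE 0.25, adjusted p = 0.0608). MMP2 was at 1.8, 9.12 and 5.23 CPM and then 20.1, 14.6 and 25.8, also without overlap (log2 2.05, SE 0.44, adjusted p = 0.107). Without replicate 2 the log2 fold changes were 2.32 for PLAU, 1.60 for HPSE and 2.79 for MMP2 (adjusted p = 0.00148, 0.0251 and 0.00142).

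TIMP3 in KKU-100 was at 1479, 1733 and 1719 CPM in the control libraries and 514, 1243 and 582 in the hairpin libraries. The arms did not overlap, and replicate 2 differed least (log2 -1.21, SE 0.23, adjusted p = 0.0797, and -1.58 with adjusted p = 0.00123 without replicate 2). DESeq2 gave it an adjusted p of 5.38e-07. MMP14 was at 3.54, 5.92 and 3.38 CPM and then 1.16, 2.71 and 1.92, without overlap (log2 -1.18, SE 0.26, adjusted p = 0.118).

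ADAM9 was higher in each of the 3 KKU-100 pairs, at 155, 170.4 and 111 CPM and then 288, 252 and 157, with overlapping arms (log2 0.64, SE 0.12, adjusted p = 0.0782). SERPINB5 was split by replicate, with log2 ratios of 1.26, -0.28 and 1.63 (mean 11.5 ± 7.56 and then 18.9 ± 10.5 CPM, SD, n = 3; log2 0.83, adjusted p = 0.276). TFPI2 was at 721, 751 and 613 CPM and then 707, 663 and 628, with a 95% interval of its log2 fold change from -0.34 to 0.20. SERPINE2, which set this line apart at baseline, was at 453, 692 and 1095 CPM and then 903, 918 and 1043 (log2 0.43, adjusted p = 0.329).

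In HuCCT1 none of the 28 testable genes passed edgeR's test, against 0.14% of all 15747 genes tested (0.114% higher and 0.0254% lower), with 4 of the 28 and 1743 of all 15747 at an unadjusted p under 0.05. DESeq2 called 2 of them. HPSE had the lowest adjusted p, at 8.68, 10 and 12.2 CPM in control and 14, 17.1 and 17 with the hairpin, without overlap (log2 0.64, SE 0.12, adjusted p = 0.109). SERPINB2 was at 134, 53.7 and 49.6 CPM and then 217, 114 and 58.5, higher in each pair (log2 0.67, SE 0.14, adjusted p = 0.15). Without replicate 2, whose interferon-stimulated genes stood apart, the test called these 2 genes (adjusted p = 0.0365 for HPSE and 0.0186 for SERPINB2), and without replicate 3 it called 5, namely SERPINB2, MMP24, MMP1, MMP7 and HPSE. Over all genes the calls in HuCCT1 moved from 22 to between 18 and 335 with 1 replicate left out.

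The genes that set HuCCT1 apart at baseline had these values with the hairpin. PLAU was at 749, 696 and 529 CPM and then 739, 1005 and 599 (log2 0.22, 95% interval -0.02 to 0.47), and MMP14 at 115, 107 and 98.5 and then 125, 131 and 96.4 (log2 0.12, 95% interval -0.08 to 0.32). MMP7 was at 51.9, 83.8 and 134 CPM and then 64, 155 and 96, and its arms overlapped. MMP10 was too low to be tested in any line, with 14 counts over the HuCCT1 control libraries (0.285, 0.237 and 0.082 CPM) and 42 over the hairpin libraries (0.482, 1.03 and 0.381 CPM), which did not overlap. TIMP3 stayed at 0 counts in both arms.

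**Figure D3:**
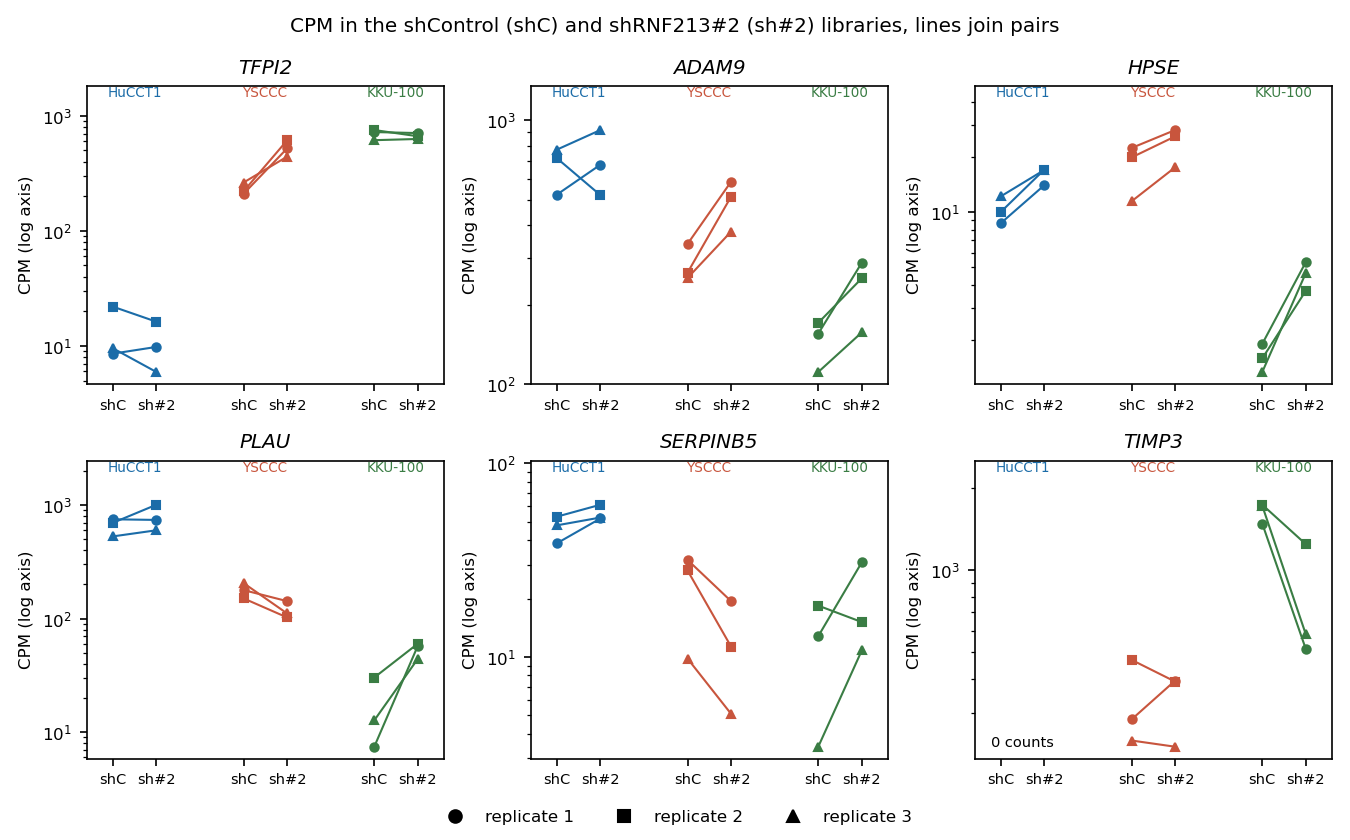
CPM (log axis) of TFPI2, ADAM9, HPSE, PLAU, SERPINB5 and TIMP3 in the shControl (shC) and shRNF213#2 (sh#2) libraries of each line, with a line joining each pair and a symbol for each replicate. HPSE is higher with the hairpin in 9 of 9 pairs, TFPI2 is higher in each of the 3 YSCCC pairs, and PLAU is lower in the 3 YSCCC pairs and higher in the 3 KKU-100 pairs.

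Averaged over the 3 lines, 3 of 33 genes tested changed, 9.09%, against 2.9% of all 19143 genes tested (1.43% higher and 1.47% lower). The 33 passed the filter on low counts over all 18 libraries, and the differences between lines use them too. They include genes without a usable estimate, such as TIMP3 with its 0 counts in HuCCT1 (SE 4332 for the mean). HPSE rose 1.81-fold on average (log2 0.85, SE 0.08, adjusted p = 0.00023) and was higher in 9 of 9 pairs. It kept its call under all 14 alternatives run, including the fit without the replicate block (adjusted p = 0.0315), and was the only one of the 3 to do so. ADAM9 rose 1.4-fold on average (log2 0.49, SE 0.08, adjusted p = 0.0061) and was higher in each pair except HuCCT1 replicate 2. It kept its call under 13 of 14 alternatives and lost it without the replicate block (adjusted p = 0.393).

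MMP14 fell 1.44-fold on average (log2 -0.52, SE 0.12, adjusted p = 0.0342). Its per-line log2 fold changes were 0.12 in HuCCT1, the line with most MMP14, -0.46 in YSCCC and -1.18 in KKU-100. The call was lost under 8 of 14 alternatives: the fit without the replicate block (adjusted p = 0.956), limma-voom (0.099) and without any 1 of the 3 HuCCT1 pairs (adjusted p = 0.0565 to 0.0919), YSCCC replicate 2 (0.0871) or 3 (0.305), or KKU-100 replicate 1 (0.0635). The average for PLAU (log2 0.49, adjusted p = 0.0656) is over per-line values of both signs.

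Whether an effect differed between lines was tested as the difference of the paired effects. KKU-100 and YSCCC differed in 5 of 33 genes, 15.2%, against 2.63% of all genes tested (1.64% higher and 0.993% lower in KKU-100). HuCCT1 and YSCCC differed in 1 of 33 (0.047% of all genes, 0.0104% higher and 0.0366% lower), and KKU-100 and HuCCT1 in 1 of 33 (0.235% of all genes, 0.162% higher and 0.0731% lower). Without the replicate block all 3 of these counts were 0. The log2 fold change of PLAU was -0.59 in YSCCC (adjusted p = 0.00595) and 1.86 in KKU-100 (adjusted p = 0.055), a difference of 2.43 (SE 0.34, adjusted p = 0.00431) that was kept under 10 of 11 alternatives. The urokinase transcript of the 2 lines was 178 ± 27.4 and 16.8 ± 11.9 CPM without the hairpin and 119 ± 21.1 and 54 ± 8.55 CPM with it (SD, n = 3 each).

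TFPI2 responded in YSCCC more than in HuCCT1 (difference of log2 fold changes -1.49, SE 0.22, adjusted p = 0.0279) and more than in KKU-100 (-1.25, SE 0.21, adjusted p = 0.00779). With the hairpin its level in YSCCC reached 441 to 611 CPM, close to the 613 to 751 CPM of KKU-100 without it. The contrast with KKU-100 was kept under 10 of 11 alternatives, and that with HuCCT1 under 5 of 11 (adjusted p = 0.0884 in limma-voom, 0.179 without HuCCT1 replicate 2, 0.103 without HuCCT1 replicate 3, 0.13 without YSCCC replicate 1 and 0.141 without YSCCC replicate 2).

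The log2 fold change of SERPINB5 was -0.99 in YSCCC and, short of the threshold, 0.83 in KKU-100 (difference 1.78, SE 0.35, adjusted p = 0.0195; 2.39 without KKU-100 replicate 2). The call was lost without KKU-100 replicate 1 (adjusted p = 0.0645) or YSCCC replicate 2 (0.0754). TIMP3 differed by -1.25 (SE 0.28, adjusted p = 0.0375) and HPSE by 1.05 (SE 0.22, adjusted p = 0.023) between KKU-100 and YSCCC. Leaving out KKU-100 replicate 1 or 3 or YSCCC replicate 1 or 2 lost both of these calls (adjusted p = 0.0552 to 0.14), and YSCCC replicate 3 lost that of TIMP3 (0.0828). MMP14 differed by -1.28 between KKU-100 and HuCCT1 (SE 0.23, adjusted p = 0.0462), a call lost without any 1 HuCCT1 pair (adjusted p = 0.0831 to 0.192) and without KKU-100 replicate 1 or 3 (0.0881 and 0.0522), and in limma-voom (0.1).

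**Figure D4:**
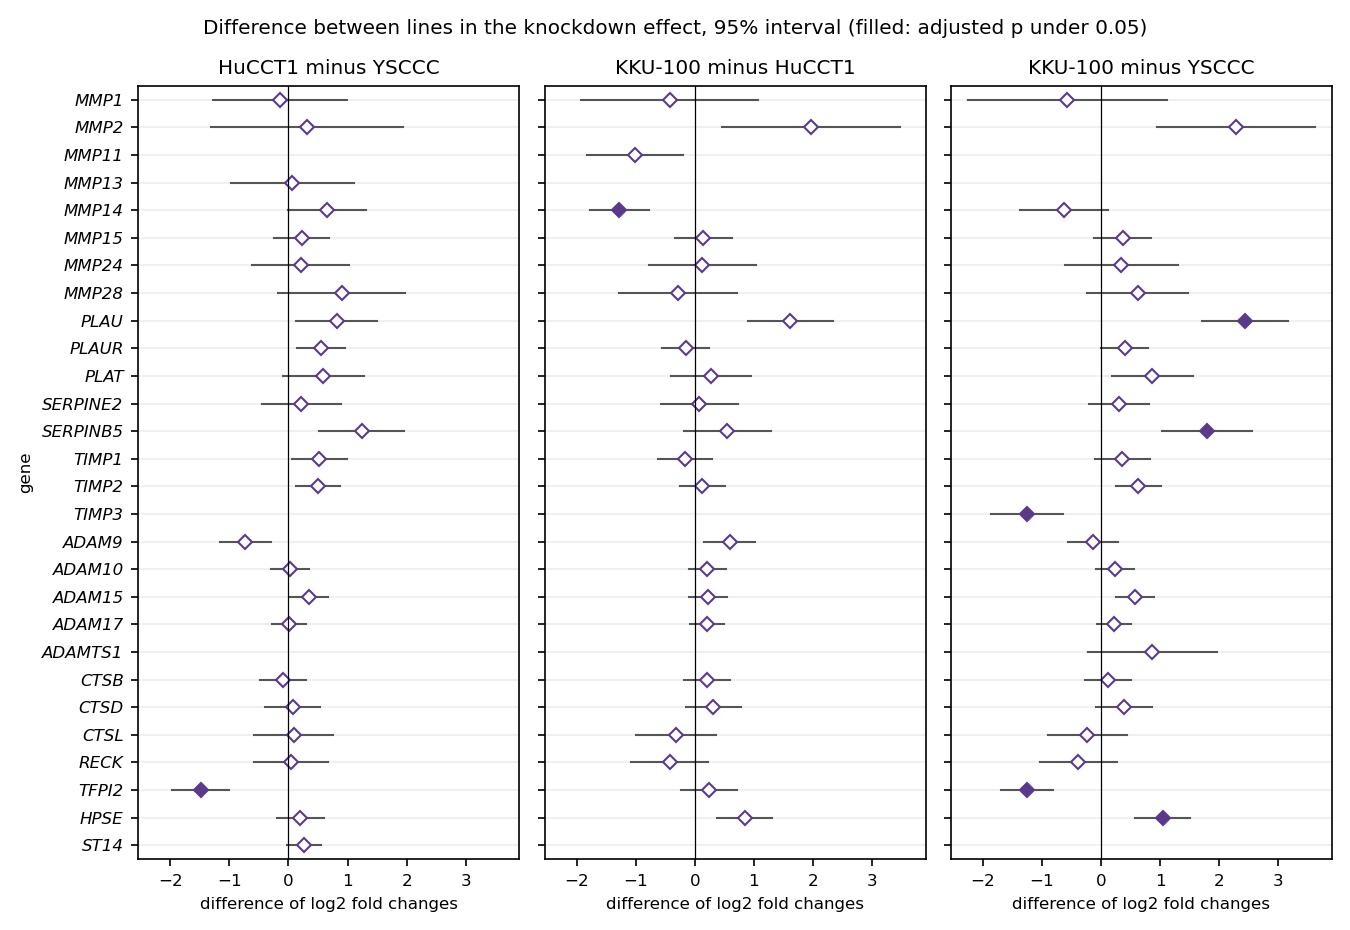
Difference between lines in the paired log2 fold change (x axis) with its 95% interval for the 28 genes tested in at least 2 lines (y axis), shown where both lines of a panel were tested, with filled points for an adjusted p below the threshold. PLAU has the largest filled difference, 2.43 for KKU-100 minus YSCCC, and TFPI2 is filled in both panels that involve YSCCC.

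The other genes of the protease and inhibitor network were taken as a list of 90, with further metalloproteinases, ADAMs, cathepsins, cystatins, serpins, kallikreins, transmembrane serine proteases and binding partners. This list too was chosen with earlier results of these data known, so its shares of calls only describe it. In YSCCC 15 of its 72 testable genes changed (3 rose and 12 fell, 20.8%), against 8.25% of all genes (3.69% higher and 4.56% lower). The median log2 fold change was -0.07. SERPINB1, an inhibitor of neutrophil proteases, rose from 1.64 ± 1.65 to 4.69 ± 2.52 CPM (SD, n = 3; log2 1.68, adjusted p = 0.0101), and SERPINA1, the antitrypsin gene, from 4.78 ± 2.29 to 9.52 ± 4.35 CPM (log2 0.99, adjusted p = 0.00277). The third that rose was CTSZ, a lysosomal carboxypeptidase at 0.735 ± 0.296 and then 1.47 ± 0.330 CPM (log2 1.01, adjusted p = 0.0452).

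Among the 12 that fell, DPP4, a surface dipeptidyl peptidase, went from 253 ± 124 to 138 ± 72.4 CPM (log2 -0.90, adjusted p = 0.000177). ADAM12 went from 12.4 ± 10.2 to 6.16 ± 3.95 CPM (log2 -0.92, adjusted p = 0.008). In KKU-100 1 of 54 changed, against 0.443% of all genes: ANPEP, the surface aminopeptidase N, rose from 2.43 ± 2.55 to 10.4 ± 5.68 CPM (log2 2.36, adjusted p = 0.0248). In HuCCT1 0 of 69 passed edgeR's test, with 14 at an unadjusted p under 0.05 (1743 of all 15747 genes). Averaged over the lines, 7 of 81 changed, 4 up and 3 down, against 2.9% of all genes (1.43% higher and 1.47% lower).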

How the data were processed

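Per the file headers, the authors deposited raw counts per gene, TPM, FPKM, coverage and a signal of counts scaled with DESeq2, 1 library per file. The deposited FPKM values and the scaled signal served for checks only. The submitters' processing notes give the build GRCh38, the quality tools FastQC 0.11.9 and Picard 1.139, the aligner STAR 2.5.1b, HTSeq 0.6.1p1, StringTie 2.1.6, and DESeq2 1.34.0, but not which of them made which column.

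The deposited raw counts of the genes kept by filterByExpr (minimum count 10) were tested in edgeR 4.0.16 under R 4.3.3, by its quasi-likelihood test with TMM scaling, Benjamini-Hochberg adjustment over all genes tested and a threshold of 0.05. Each line was fitted alone with the replicate number as a block. The mean effect and the differences between lines used all 18 libraries with 9 pairs as blocks, and shControl levels the 9 shControl libraries without a block. CPM uses TMM factors over the 18 libraries. The pairing rests on same-numbered libraries of a line deviating together from their group means (r = 0.787, 0.706 and 0.763 in HuCCT1, 0.818, 0.723 and 0.902 in YSCCC, 0.73, 0.6 and 0.406 in KKU-100). In YSCCC libraries of unlike number also deviated together. There r was 0.657 for shControl replicate 2 with shRNF213#2 replicate 1, and 0.516 for shControl replicate 1 with shRNF213#2 replicate 2. These values therefore set replicates 1 and 2 of YSCCC apart as pairs only weakly. The labels call the replicates biological and say no more of their source, so p-values measure only the spread between these libraries. Totals of 21056732 to 25502097 counts set the counting precision.

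The 34 genes, the 90 further genes and the markers were chosen with earlier results of these data known. Values in every library are given for genes called with the hairpin or at least 4-fold apart between lines, and for others where they add to a comparison. Of the 90, up to 5 called genes per line with the largest change and pairs of 1 sign are named. Alternatives were the other pairing, DESeq2 size factors, no filter, DESeq2 1.42.0, limma-voom (limma 3.58.1), leaving out replicates and, for levels, the shRNF213#2 libraries. The fits were also run on simulated counts, in which both arms shared a replicate effect and only genes with many counts were changed. That run cannot test the pairing or the calls of low genes.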

Additional observations from a re-analysis of the deposited data

Results flagged for a closer look

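In 7 cases the test of the difference itself found that the effect of the hairpin differed between lines. Between KKU-100 and YSCCC the log2 effects differed by 2.43 for PLAU, 1.78 for SERPINB5, 1.05 for HPSE, -1.25 for TIMP3 and -1.25 for TFPI2. TFPI2 also differed by -1.49 between HuCCT1 and YSCCC, and MMP14 by -1.28 between KKU-100 and HuCCT1. Without the replicate block none of the 7 passed edgeR's test (adjusted p = 0.437 to 1).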

How the results depend on the processing

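No effect called with the hairpin, in a line, in the mean or in a difference, reversed its sign under any alternative run. Signs of genes not called did change in places, as for the mean effect of SERPINB5 (log2 0.0192, and -0.00581 without the replicate block). Without the replicate block the calls among the 34 genes were 0 in YSCCC, 1 for the mean effect and 0 for each of the 3 differences between lines. Without a filter on low counts they were 2 in HuCCT1, 5 in KKU-100, 7 for the mean, 3 for HuCCT1 against YSCCC, 2 for KKU-100 against HuCCT1 and 9 for KKU-100 against YSCCC. DESeq2 called 2 in HuCCT1, 4 in KKU-100, and 2, 2 and 8 for those differences, and limma-voom 0 for the first and 0 for the second. Leaving out 1 replicate at a time gave 0 to 5 in HuCCT1, 6 to 12 in YSCCC, 0 to 6 in KKU-100, 2 to 5 for the mean, and 0 to 1, 0 to 4 and 2 to 7 for the differences. Over all genes the calls were 22 in HuCCT1, 1397 in YSCCC, 66 in KKU-100, 555 for the mean, and 9, 45 and 503 for the differences. Without the block they were 0, 0, 2, 28, 0, 0 and 0, in the same order, and without a filter 117, 2160, 193, 907, 125, 273 and 894. DESeq2 called 114 in HuCCT1, 420 in KKU-100, 1054 for the mean, and 154, 283 and 1043 for the differences, and limma-voom 4 and 20 for the first and second of them. Leaving out 1 replicate gave 18 to 335, 313 to 1856, 9 to 420, 226 to 1011, 0 to 9, 4 to 290 and 156 to 839. The shControl counts stayed within 1.5 times under every alternative, the replicate block included (22, 25 and 23 genes). MMP3 and ADAMTS18 in YSCCC had no adjusted p from DESeq2. With 1 hairpin and 3 pairs per line, effects of low genes such as MMP3, MMP10 and ADAMTS18 rest on few counts.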
